A study of Mus musculus with 6 samples.

Results

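The transcripts described here are those of 10 genes that move calcium into and out of the endoplasmic and sarcoplasmic reticulum, chosen by name from the 21900 distinct gene symbols measured: the pump genes Atp2a1, Atp2a2 and Atp2a3, the ryanodine receptor genes Ryr1, Ryr2 and Ryr3, the inositol trisphosphate receptor genes Itpr1, Itpr2 and Itpr3, and Sln, which encodes the small pump regulator sarcolipin. All 10 were found in the table. RNA came from the inguinal depot of white fat, which lies under the skin, of C57BL/6 mice aged 2 months that were kept at 22 °C on chow and then held at 4 °C for 7 days. The 3 control libraries carry the genotype Foxp4fl/fl, and the 3 knockout libraries carry Foxp4AdipoQdelta/delta, a deletion of the forkhead factor gene Foxp4 by a Cre recombinase under the adiponectin promoter, which is active in mature adipocytes. All 6 libraries come from cold-exposed mice, and Cre and the loss of Foxp4 go together by the labels, so their effects cannot be told apart. The labels do not say whether a library is 1 mouse or a pool, and p-values therefore measure only the spread between these samples. One comparison is made, knockout against control. Each gene is also set against the skeletal muscle actin gene Acta1 within each library, which marks the isoforms whose level varies mainly with muscle RNA.

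The SERCA pumps encoded by the Atp2a genes use ATP to return calcium from the cytosol to the reticulum, and ryanodine and inositol trisphosphate receptors let it out again. Atp2a1 is the pump isoform of fast skeletal muscle. Ryr1 is the release channel of skeletal muscle, fast and slow, where release through the ryanodine receptor starts contraction and reuptake ends it. Atp2a2 is expressed in nearly all cells and in heart and slow muscle, and Atp2a3 mainly in blood, endothelial and epithelial cells. In beige adipocytes, futile cycling of calcium through SERCA2b and the ryanodine receptor RyR2 has been described as a source of heat that does not need Ucp1. Sarcolipin binds the pump and lets ATP be spent without calcium being moved, a source of heat in muscle.

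Levels are in FPKM, fragments scaled to the exon length of the gene and to the depth of the library. Foxp4 measured 5.76, 4.01 and 4.62 FPKM in control replicates 1 to 3, against 1.92, 1.71 and 1.64 FPKM in knockout replicates 1 to 3, without overlap, though its adjusted p in limma was 0.070. Reads recovered from the FPKM values summed to 13180587 in the shallowest library and 15998348 in the deepest. The fat markers were high in every library: the 8 mature adipocyte markers summed to between 6813 and 8251 FPKM in controls and 6515 and 6860 FPKM in knockouts. Skeletal muscle RNA was present in every library and very unevenly. The 13 markers of fast fibres, of which Tnnc2 was listed at 0 throughout, had sums of 88.8, 26.3 and 64.1 FPKM among controls, against 29.3, 132 and 396 FPKM among knockouts, and Acta1 alone measured 25.6, 6.33 and 18.1 FPKM in control replicates 1 to 3, against 8.06, 28.9 and 103 FPKM in knockout replicates 1 to 3. In whole tissue fewer cells of a type and less RNA per cell cannot be told apart.

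RefSeq promoter windows (build GRCm38.p6, 250 bases before to 50 after the start) were found for 6 of the 10 genes and for Acta1. Those of Atp2a1 and Ryr1 are shown because these genes followed Acta1 from library to library, that of Acta1 because it is their reference, and that of Atp2a3 as a pump gene that did not follow it. Capitals mark matches, on either strand, to the letters CAGCTG (an E-box, the kind bound by myogenic factors), TATAAA (the box ahead of many start sites), CATTCC (known as the muscle CAT element), GGGCGG (a GC box), the CArG box or the MEF2 motif.
Atp2a1 promoter, chr7:126463024-126463323, minus strand: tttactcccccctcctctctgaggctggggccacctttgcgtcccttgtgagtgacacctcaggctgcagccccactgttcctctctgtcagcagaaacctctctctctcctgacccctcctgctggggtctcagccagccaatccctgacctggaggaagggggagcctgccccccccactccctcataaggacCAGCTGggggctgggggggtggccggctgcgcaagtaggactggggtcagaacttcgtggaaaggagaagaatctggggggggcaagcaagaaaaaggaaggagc
Ryr1 promoter, chr7:29125102-29125401, minus strand: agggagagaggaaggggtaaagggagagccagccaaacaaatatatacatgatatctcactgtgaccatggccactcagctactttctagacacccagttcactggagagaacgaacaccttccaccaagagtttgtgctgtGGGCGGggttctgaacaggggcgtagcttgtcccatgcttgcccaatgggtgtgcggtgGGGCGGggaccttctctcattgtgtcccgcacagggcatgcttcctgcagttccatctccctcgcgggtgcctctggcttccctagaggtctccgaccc
Atp2a3 promoter, chr11:72960919-72961218, plus strand: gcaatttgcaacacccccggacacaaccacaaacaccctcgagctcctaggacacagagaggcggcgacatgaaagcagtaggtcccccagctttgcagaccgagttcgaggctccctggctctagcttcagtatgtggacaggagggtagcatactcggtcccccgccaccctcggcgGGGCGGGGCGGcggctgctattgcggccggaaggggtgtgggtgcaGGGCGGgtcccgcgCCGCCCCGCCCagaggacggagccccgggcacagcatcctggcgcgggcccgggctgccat
Acta1 promoter, chr8:123894726-123895025, minus strand: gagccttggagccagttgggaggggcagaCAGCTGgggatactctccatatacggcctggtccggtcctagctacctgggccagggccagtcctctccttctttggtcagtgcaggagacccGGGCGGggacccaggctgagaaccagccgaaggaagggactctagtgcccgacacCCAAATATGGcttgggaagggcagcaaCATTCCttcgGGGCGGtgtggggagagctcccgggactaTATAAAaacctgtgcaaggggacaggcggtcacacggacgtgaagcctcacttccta
The Atp2a1 window held the E-box CAGCTG, first base at -55 from the start, and none of the other motifs marked. Acta1 held CAGCTG at -221, a CArG box at -73, CATTCC at -46 and TATAAA at -7, besides 2 GC boxes. The Ryr1 window held 2 GC boxes and the Atp2a3 window 5, overlapping in part, and neither held CAGCTG or the looser E-box CANNTG, of which CAGCTG is one form. Among 32851 such windows of 27025 genes, CANNTG occurred in 72.3%, GGGCGG in 35.7%, CAGCTG in 16.3%, CATTCC in 14.7%, TATAAA in 13.6%, the MEF2 motif in 3.19% and the CArG box in 1.63%. A match is a description of the letters, and the data hold no measure of binding.

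In the GENCODE M21 annotation of mm10 the pump genes lie at chr7:126445858-126463108 (Atp2a1, minus strand), chr5:122453513-122502225 (Atp2a2, minus) and chr11:72961169-72993044 (Atp2a3, plus). The ryanodine receptor genes lie at chr7:29003344-29125179 (Ryr1, minus), chr13:11553102-12106945 (Ryr2, minus) and chr2:112631355-113217096 (Ryr3, minus). The inositol trisphosphate receptor genes lie at chr6:108213096-108551109 (Itpr1, plus), chr6:146108299-146502223 (Itpr2, minus) and chr17:27057304-27122223 (Itpr3, plus), and Sln at chr9:53850164-53854560 (plus). All values are per gene, over merged exons. Non-coding antisense genes are annotated within Ryr1, Itpr1 and Itpr3, and without a stated strand setting their reads cannot be told apart where exons overlap.

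Per length, Atp2a2 was the most abundant of the 10 transcripts in all 6 libraries, and the ryanodine receptors were scarce. Mean FPKM over the 6 libraries was 43.0 for Atp2a2, 7.78 for Atp2a1, 6.11 for Atp2a3, 4.95 for Itpr1, 4.36 for Itpr2, 1.42 for Itpr3, 0.341 for Ryr1, 0.218 for Sln, 0.0324 for Ryr2 and 0.0129 for Ryr3. The ranges of Atp2a1 (1.34 to 26.2 FPKM), Atp2a3 (5.39 to 6.75) and Itpr1 (3.58 to 6.60) overlapped, so their order was not the same in every library, while Itpr1 lay above Itpr2 in each. Itpr3 overlapped with Atp2a1 at the low end of the latter. The 3 pumps and the 3 inositol trisphosphate receptors reached the mean of 1 FPKM in either group that was asked for a test, and the ryanodine receptors and Sln did not.

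**Figure D1:**
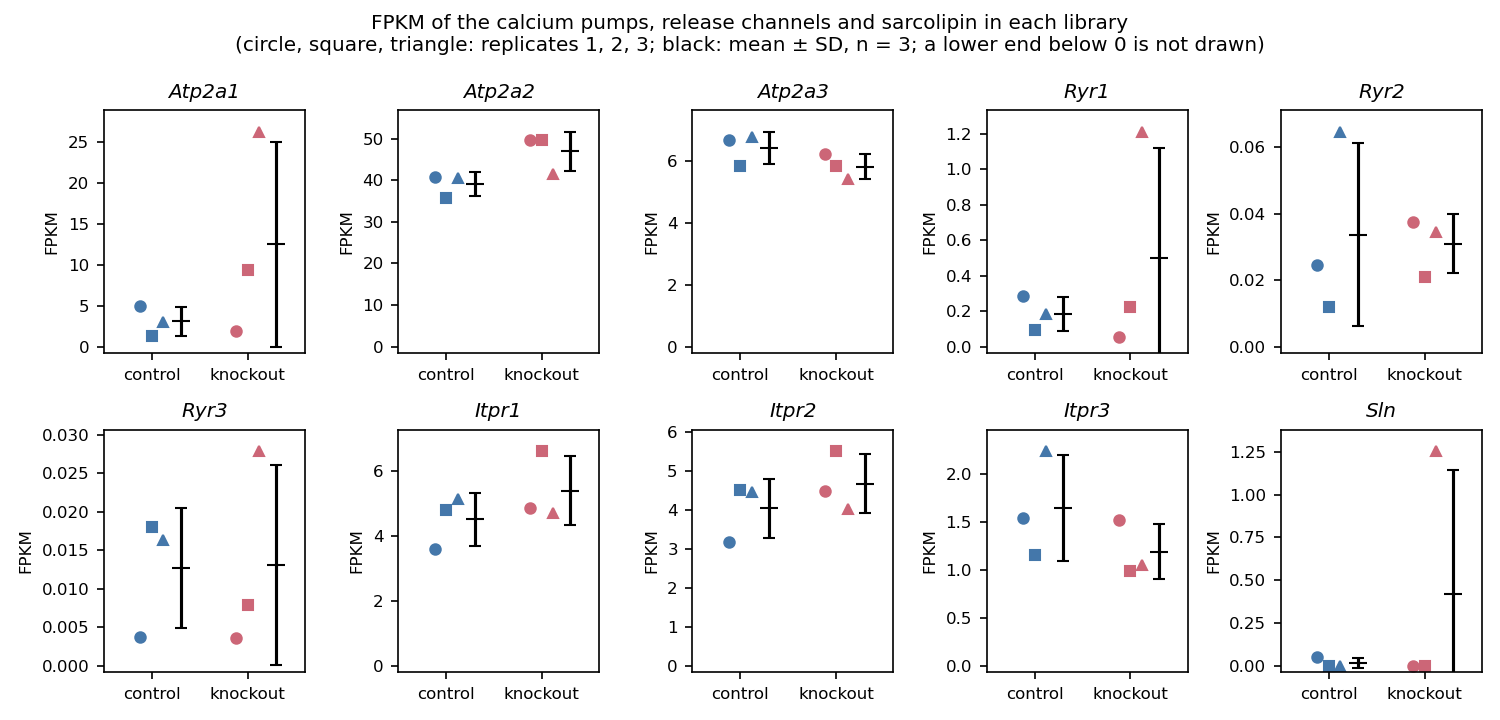
FPKM of each of the 10 genes (vertical axis, linear, a scale of its own per gene) in the 3 control and 3 knockout libraries, with the mean and SD of each group. Atp2a2 is the gene whose 3 knockouts all lie above the 3 controls; in Atp2a1, Ryr1, Ryr3 and Sln knockout replicate 3 stands highest.

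Between genotypes, 1 of the 6 tested genes, Atp2a2, differed at the unadjusted level, and 0 of the 6 passed an adjusted p of 0.05 in limma over the 10787 genes tested, where 1 gene (0.00927%) did. At an unadjusted p of 0.05, 1 of the 6 was higher and 0 were lower, against 24.1% of all genes tested in either direction (6.98% higher and 17.1% lower in knockouts), and 1 gene in 6 is too few to set apart from these shares. Fold changes are on the scale of log2(FPKM + 1). Their median over the 6 was 0.19, with 4 above 0 and 2 below, and over all genes tested -0.082. The groups did not overlap in 1 of the 10 genes, namely Atp2a2 with the knockouts above. That is 1 of the 6 tested, against 31.2% of all genes tested (8.48% with the knockouts above and 22.7% below).

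Atp2a2, the housekeeping pump, was the member that differed at the unadjusted level. It measured 40.9, 35.7 and 40.5 FPKM in control replicates 1 to 3, against 49.6, 49.7 and 41.6 FPKM in knockout replicates 1 to 3, with 3175 to 4463 reads per library. Each knockout lay above each control, knockout replicate 3 by the narrowest margin. The means were 39.0 ± 2.88 and 47.0 ± 4.67 FPKM (SD, n = 3) with a log2 fold change of 0.26 (SE 0.10, 95% interval 0.020 to 0.50, unadjusted p = 0.037, adjusted p = 0.18 in limma). The unadjusted p in limma was above 0.05 without control replicate 2 (0.11), knockout replicate 1 (0.12) or knockout replicate 2 (0.12), with a log2 fold change between 0.20 and 0.34 whichever library was left out. Of 12 thermogenic adipocyte genes, 6 were higher in knockouts at an unadjusted p of 0.05 and 0 lower, with summed levels of 1649 to 3425 FPKM in controls and 3548 to 5217 FPKM in knockouts; their part in the Atp2a2 difference was not tested. Without knockout replicate 3, the library richest in muscle RNA, the log2 fold change of Atp2a2 was 0.34, and with the Acta1 level as a covariate it was 0.29.

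Atp2a3 had the smallest range of the 9 genes above 0 in every library, with 6.67, 5.82 and 6.75 FPKM in control replicates 1 to 3, against 6.20, 5.82 and 5.39 FPKM in knockout replicates 1 to 3. The groups overlapped, and the log2 fold change was -0.12 (95% interval -0.33 to 0.083, adjusted p = 0.42 in limma). Among markers of cell types that can carry this isoform, 10 B and T lymphocyte markers summed to between 3.34 and 5.20 FPKM in controls and 2.68 and 4.67 FPKM in knockouts, and 6 endothelial markers to between 70.1 and 131 FPKM in controls and 78.0 and 94.5 FPKM in knockouts. The 5 platelet and megakaryocyte markers, Gp1bb among them at 0, summed to between 34.2 and 55.8 FPKM in controls and 28.5 and 32.3 FPKM in knockouts, and the 6 macrophage markers to between 202 and 277 FPKM and between 134 and 155 FPKM, both lower in every knockout. The part of these cells in the Atp2a3 level was not tested.

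Atp2a1, on chromosome 7, had the largest fitted difference of the 6 tested genes and the widest interval. It measured 4.90, 1.34 and 3.03 FPKM in control replicates 1 to 3, against 1.91, 9.29 and 26.2 FPKM in knockout replicates 1 to 3, from 68 to 240 reads a library in controls and 98 to 1379 in knockouts. Knockout replicate 1 lay below control replicates 1 and 3, so the groups overlapped. The means of 3.09 ± 1.78 and 12.5 ± 12.5 FPKM (SD, n = 3) gave a log2 fold change of 1.29 (SE 0.76, 95% interval -0.49 to 3.07, adjusted p = 0.33 in limma). The value turned on single libraries: it was 0.52 without knockout replicate 3 and 2.13 without knockout replicate 1 (adjusted p = 0.66 and 0.20 in limma; unadjusted, 0.42 and 0.0054). Of the gene's merged exons, 763 bases overlap exons of the coding gene Rabep2 on the opposite strand, and since the strand setting of the counting is not stated the Atp2a1 level is uncertain to that extent.

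The make-up of the pump transcripts varied with Atp2a1. Atp2a1 made up 9.34, 3.12 and 6.03% of summed SERCA FPKM in the controls and 3.30, 14.3 and 35.8% in the knockouts. Atp2a2 held 56.8 to 86.0% and was the larger share in every library. The sum itself was 52.5, 42.9 and 50.3 FPKM in the controls and 57.7, 64.8 and 73.2 FPKM in the knockouts, without overlap (exact two-sided permutation p = 0.10, the smallest that 3 against 3 can give). Without Atp2a1 the sum was 41.5 to 47.6 FPKM in controls and 47.0 to 55.8 FPKM in knockouts, and knockout replicate 3 fell among the controls (exact permutation p = 0.30). The share of Atp2a3 was 12.7 to 13.6% in controls and 7.37 to 10.7% in knockouts, also without overlap (exact permutation p = 0.10), although its own FPKM overlapped.

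**Figure D2:**
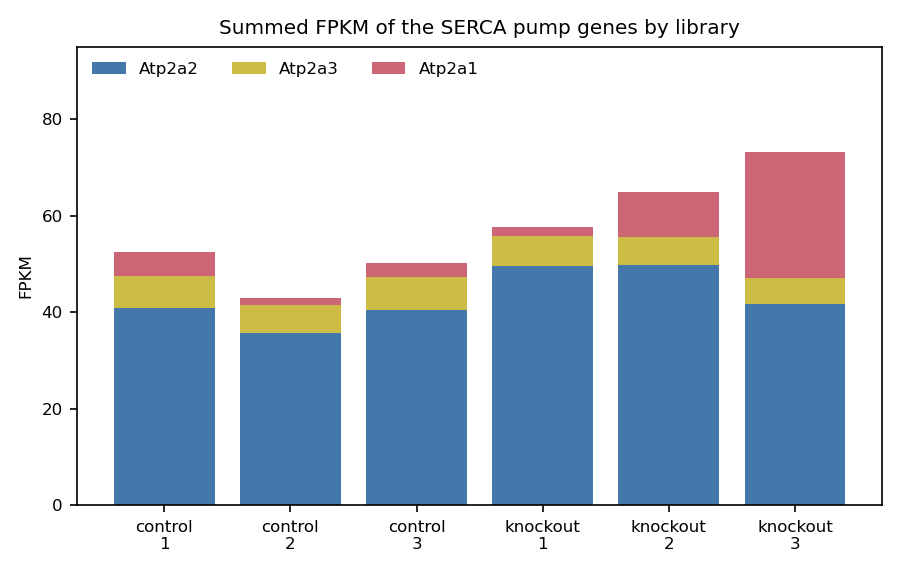
Summed FPKM of the 3 SERCA genes in each library (stacked bars from 0; blue Atp2a2, yellow Atp2a3, red Atp2a1). The blue part spans 35.7 to 49.7 FPKM, while the red part spans 1.34 to 26.2 FPKM and is tallest in knockout replicate 3.

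The ratio to Acta1 told Atp2a1 and Ryr1 from the other genes. Acta1 itself ranged 16.3-fold over the 6 libraries. Atp2a1 ranged 19.6-fold, but its ratio to Acta1 was 0.191, 0.212 and 0.168 in the controls and 0.237, 0.322 and 0.254 in the knockouts, a range of 1.92-fold. Ryr1, the release channel of skeletal muscle, ranged 21.7-fold in FPKM and 2.08-fold as a ratio to Acta1. Put as the SD of log2 values over the 6 libraries, Atp2a1 went from 1.58 for its level to 0.33 for its ratio to Acta1, and Ryr1 from 1.53 to 0.39. Of the 11 other fast-fibre markers above 0 in every library, the SD of the ratio to Acta1 lay between 0.21 and 0.86. The highest was that of Eno3, which varied more as a ratio than as a level (SD 0.68). The next was that of Myh1, at 0.64, and Atp2a1 and Ryr1 lay between 0.21 and that value.

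For the other 7 genes that were above 0 in every library the ratio to Acta1 varied more than the level. Atp2a2 ranged 1.39-fold in FPKM and 15.3-fold as a ratio, Atp2a3 1.25-fold and 17.6-fold, Itpr1 1.84-fold and 16.6-fold, Itpr2 1.74-fold and 18.3-fold, and Itpr3 2.25-fold and 18.5-fold. The SD of their log2 levels lay between 0.13 (Atp2a3) and 0.44 (Itpr3), against 1.45 for Acta1. Levels this steady fix in advance that the ratio varies more. These 5 did not range as widely as Acta1, and whether a smaller part of them came from muscle RNA cannot be judged this way. Against the mean log2 level of the mature adipocyte markers, the SD of the log2 ratio was 0.12 for Atp2a3, 0.27 for Atp2a2 and between 0.39 and 0.42 for the inositol trisphosphate receptors, and it was 1.62 for Atp2a1. Ryr2 and Ryr3 also varied more as a ratio than as a level, on few reads. A ratio that varied less than the level was found in 29 of 10775 tested genes (0.269%), 10 of which are on the fast-fibre list. The wide range of Acta1 keeps this share low. Here it was found in 2 of the 9 genes, Atp2a1 and Ryr1, of which Ryr1 is not among the tested genes. The mean log2 of the fast-fibre markers in place of Acta1, or Ckm in place of it, also gave a count of 2. With the adipocyte mean as the reference the count was again 2, but the genes were Atp2a3 (0.126 for the level and 0.124 for the ratio) and Itpr3 (0.440 and 0.424), by a narrow margin.

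**Figure D3:**
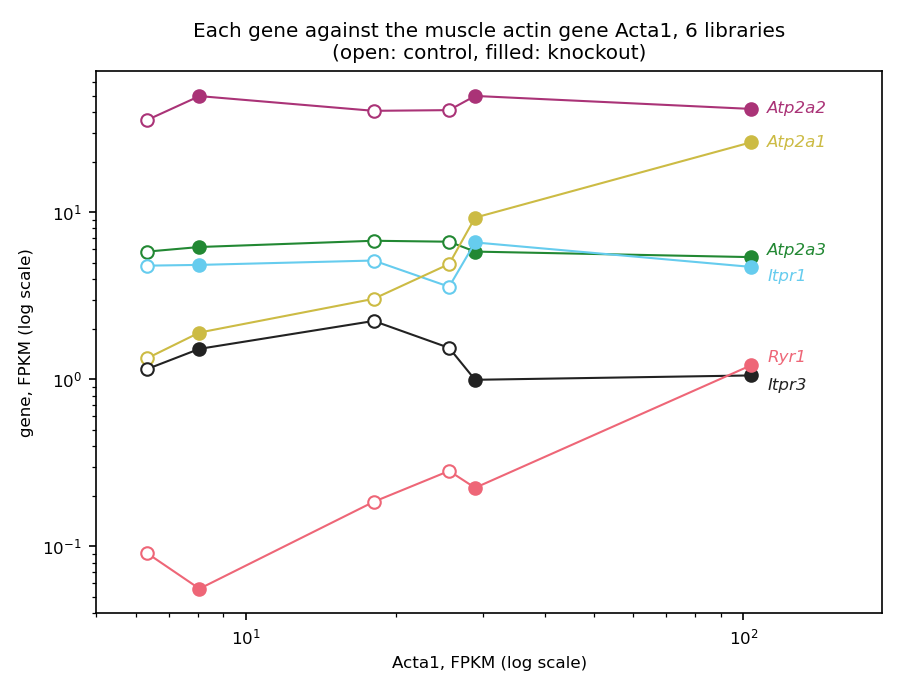
FPKM of 6 of the genes against Acta1 FPKM, both on log axes, with 1 point per library (open, control; filled, knockout) joined in order of Acta1. Atp2a1 and Ryr1 climb with Acta1 over its range of 6.33 to 103 FPKM, while Atp2a2, Atp2a3, Itpr1 and Itpr3 run nearly level.

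**Figure D4:**
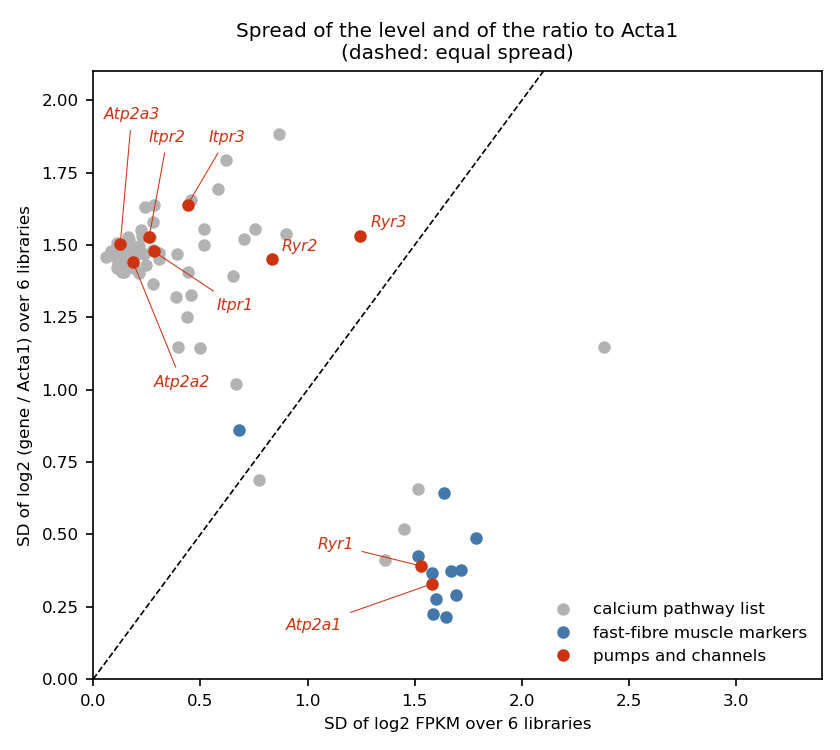
SD over the 6 libraries of log2 FPKM (horizontal) and of log2 of the ratio to Acta1 (vertical) for the pumps and channels (red), the fast-fibre markers (blue) and the calcium pathway list (grey). Genes below the dashed line vary less as a ratio to Acta1 than as a level: Atp2a1 (1.58 and 0.33) and Ryr1 (1.53 and 0.39) lie there, among the muscle markers.

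Within the narrow range that was left, the Atp2a1 to Acta1 ratio was higher in every knockout than in any control. The difference of mean log2 ratios was 0.50 (control mean -2.40 ± 0.17, knockout mean -1.90 ± 0.23, SD, n = 3), with an exact two-sided permutation p of 0.10, the smallest this design allows, and 0.68 after Benjamini-Hochberg adjustment over the 9 genes. It lay between 0.37 and 0.59 when 1 library was left out. With other references in place of Acta1 it was smaller, 0.29 against the mean log2 of the fast-fibre markers and 0.35 against Ckm. Of the tested genes, 0.241% had groups that did not overlap in this ratio in either direction. In the limma fit with Acta1 as a covariate Atp2a1 had a log2 fold change of 0.45 (95% interval 0.065 to 0.83, unadjusted p = 0.029, adjusted p = 0.22), where 19.3% of all genes had an unadjusted p under 0.05. Of 12 fast-fibre markers taken in turn, 10 of them added after the data were seen, the ratio had a higher mean in knockouts against 10, was without overlap against 3 (Acta1, Ckm and Tnnt3), and was lower in mean against Myh1 (-0.44) and Pvalb (-0.034). As ratios to Acta1, 4 of 10775 genes (0.0371%) were higher in every knockout than in any control: Atp2a1, Myh1, Pvalb and Eef1a2, the last a translation factor gene named after its values were seen. Acta1 ranged widely in groups that overlapped, so a gene that did not vary with it could hardly separate. The shares of 0.241% and 0.0371% are low for that reason. Of the 11 other fast-fibre markers, 9 had a higher mean ratio to Acta1 in knockouts, and 2 (Myh1 and Pvalb) were without overlap.

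The release channels of the ryanodine family were at low levels in this tissue. Ryr1 measured 0.283, 0.0909 and 0.185 FPKM in control replicates 1 to 3, against 0.0557, 0.224 and 1.21 FPKM in knockout replicates 1 to 3, on 18 to 400 reads per library. The order of the libraries was close to that of Acta1, with knockout replicate 3 far above the rest, and the groups overlapped. As a ratio to Acta1 it was 0.0110, 0.0144 and 0.0102 in the controls and 0.00692, 0.00776 and 0.0117 in the knockouts, a difference of -0.46 in mean log2 ratio (exact permutation p = 0.30). Ryr2, the channel named in beige fat calcium cycling and best known from heart muscle, had 5 to 30 reads in the controls and 8 to 16 in the knockouts, or 0.0337 ± 0.0275 and 0.0310 ± 0.00885 FPKM (SD, n = 3). Its summed 45 reads in controls (exact Poisson interval 32.8 to 60.2) and 39 in knockouts (27.7 to 53.3) had overlapping intervals, and its highest library was control replicate 3, not the library richest in muscle. Ryr3 had 11 reads in each group. For Ryr3, 916 exon bases overlap exons of Aven on the opposite strand, so that even these reads are uncertain. Set per length against the pumps, Ryr2 stayed at or below 0.0646 FPKM in libraries with 35.7 to 49.7 FPKM of Atp2a2.

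The pump and the release channel of skeletal muscle both followed Acta1, and their ratio to each other was higher in every knockout than in any control. Atp2a1 was 17.3, 14.7 and 16.4 times Ryr1 per length in the controls and 34.2, 41.5 and 21.7 times in the knockouts. The difference of mean log2 ratios was 0.96, or 1.94-fold (exact two-sided permutation p = 0.10, the smallest 3 against 3 can give). This ratio was picked after its values were seen. Of 10776 genes, 8 (0.0742%) had every knockout above every control as a ratio to Ryr1, and 15 (0.139%) were without overlap in either direction. Ryr1 ranged 21.7-fold in groups that overlapped, so a gene that did not vary with it could hardly separate. These shares therefore do not show how rare the separation is among muscle genes. Ryr1 rests on 18 reads in knockout replicate 1 (exact Poisson interval 10.7 to 28.4) and 65 in knockout replicate 2 (50.2 to 82.8). As a ratio to 12 fast-fibre markers taken in turn, Ryr1 was lower in every knockout against 5 and overlapped against 7.

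Sln was found above 1 read in 1 library. It had 25 reads in knockout replicate 3 (1.25 FPKM), 1 read in control replicate 1 (0.0539 FPKM) and was listed at 0 in the other 4, where a count of 0 allows up to 3 reads (a one-sided 95% limit), or 0.141 to 0.171 FPKM. The two-sided exact Poisson interval, as used for the other counts, ends at 3.69 reads for a count of 0. Knockout replicate 3 was also highest in Acta1, but Sln did not scale with it over the libraries. At the ratio of Sln to Acta1 in that library (0.0121), knockout replicate 2 would hold 6.12 reads and control replicate 1 would hold 5.76, and 0 and 1 were found. The same library had the highest sum of the 7 slow-fibre markers, 5.80 FPKM against 1.64 to 2.65 FPKM in the other 5, and the part of slow-fibre RNA in the Sln reads was not tested. These intervals and limits cover counting error only.

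The inositol trisphosphate receptors, which release calcium when a surface receptor activates phospholipase C, had higher mean levels than the ryanodine receptors. Itpr1 and Itpr2 lay above Ryr1 in every library, while Itpr3 (1.05 FPKM) lay below Ryr1 (1.21 FPKM) in knockout replicate 3. Itpr1 measured 3.58, 4.79 and 5.14 FPKM in control replicates 1 to 3, against 4.84, 6.60 and 4.71 FPKM in knockout replicates 1 to 3. Itpr2 measured 3.17, 4.51 and 4.46 FPKM in control replicates 1 to 3, against 4.48, 5.51 and 4.03 FPKM in knockout replicates 1 to 3. Both were lowest in control replicate 1 and highest in knockout replicate 2, and in both the groups overlapped. Their log2 fold changes were 0.21 (95% interval -0.15 to 0.57) for Itpr1 and 0.17 (-0.17 to 0.51) for Itpr2, with adjusted p of 0.42 and 0.49 in limma.

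Itpr3, known from epithelial and secretory cells, had the lower mean in knockouts. It measured 1.54, 1.15 and 2.24 FPKM in control replicates 1 to 3, against 1.52, 0.993 and 1.05 FPKM in knockout replicates 1 to 3, with a log2 fold change of -0.26 (95% interval -0.66 to 0.14, adjusted p = 0.38 in limma). Control replicate 3 was the highest library, and it was also the highest in the sums of the endothelial markers (131 FPKM, against 70.1 to 94.5 in the others) and of the 9 smooth muscle and mural markers (129 FPKM, against 55.7 to 79.4). Without that library the Itpr3 value was -0.10, and without control replicate 2 it was -0.40 (unadjusted p = 0.050 and adjusted p = 0.20 in limma); the part of those cells was not tested. The 6 epithelial markers, Krt14 among them at 0, summed to between 0.911 and 2.01 FPKM in controls and 0.514 and 0.790 FPKM in knockouts. Of summed inositol trisphosphate receptor FPKM, Itpr1 held 43.2 to 50.4%, Itpr2 37.7 to 43.1% and Itpr3 7.58 to 18.9%, and the 3 shares overlapped between groups (exact permutation p of 0.20 for Itpr1, 0.40 for Itpr2 and 0.20 for Itpr3).

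**Figure D5:**
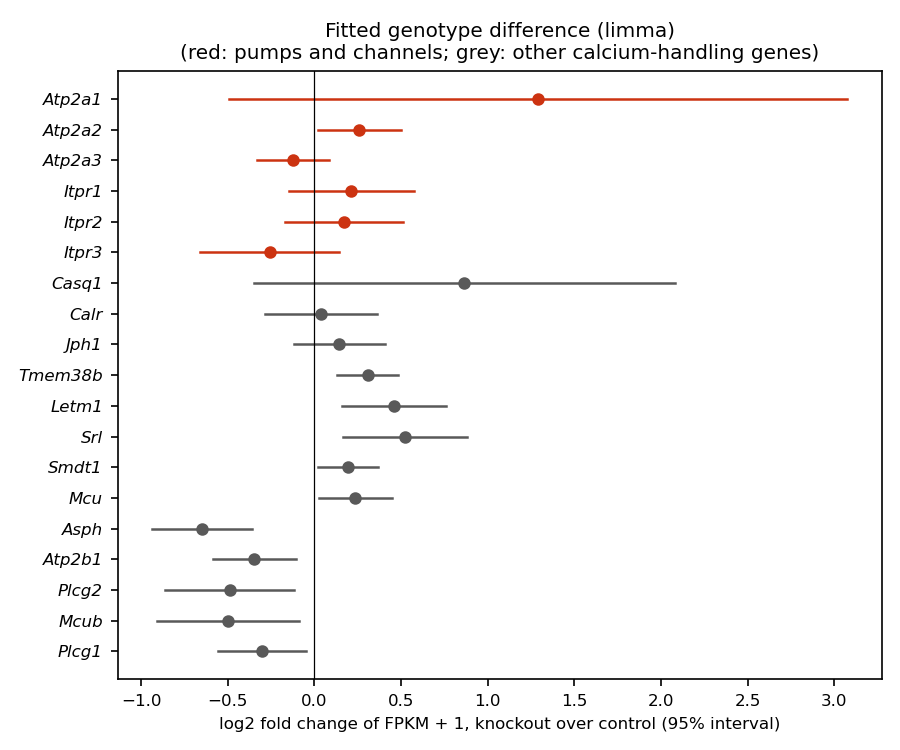
Fitted log2 fold change of FPKM + 1, knockout over control, with 95% limma intervals, for the 6 tested pumps and channels (red) and the tested genes named from the calcium pathway list (grey). The interval of Atp2a1 is the widest, -0.49 to 3.07, and that of Atp2a2, 0.020 to 0.50, lies just above 0.

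Other genes of calcium handling were read from a list of 70 names, of which 67 were in the table and 42 were tested. At an unadjusted p of 0.05, 5 of the 42 were higher and 6 lower in the knockouts, where the shares over all genes tested were 6.98% and 17.1%, so the list as a whole lay near the background. In limma 0 passed over all genes tested, and the median log2 fold change was -0.060, against -0.082 over all genes. The split was 8 higher and 5 lower under median-of-ratios scaling, 6 and 2 without knockout replicate 3, 4 and 11 without control replicate 2, 5 and 3 without control replicate 3, and 3 and 3 without control replicate 1. The genes below are given by their values, since none passed the adjusted threshold. Among those higher were genes of the reticulum and of mitochondrial calcium uptake. Tmem38b, a potassium channel of the reticulum that balances charge during calcium release, measured 11.7, 11.2 and 11.1 FPKM in control replicates 1 to 3, against 14.6, 14.8 and 13.3 FPKM in knockout replicates 1 to 3 (adjusted p = 0.094 in limma). Srl, the reticulum calcium-binding protein sarcalumenin, measured 2.56, 2.89 and 3.50 FPKM in control replicates 1 to 3, against 3.63, 5.56 and 5.06 FPKM in knockout replicates 1 to 3, with log2 fold change 0.52 and adjusted p = 0.12 in limma. Mcu, the pore of the mitochondrial calcium uniporter, had means of 2.20 and 2.76 FPKM, Smdt1, its essential regulator, 55.5 and 63.6 FPKM, and Letm1, an ion exchanger of the inner mitochondrial membrane, 31.5 and 43.6 FPKM. The 3 knockouts lay above the 3 controls in these 5 genes, which were picked by their p. Over the 42 tested genes of the list, 7 had the knockouts above and 6 had them below, against 8.48% and 22.7% of all genes tested.

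Among those lower, Asph, a locus that encodes aspartyl hydroxylase and the calcium store proteins junctin and junctate, measured 8.68, 6.60 and 6.54 FPKM in control replicates 1 to 3, against 4.67, 3.81 and 4.28 FPKM in knockout replicates 1 to 3 (log2 fold change -0.65, SE 0.12, adjusted p = 0.079 in limma). Gene-level values do not show which of its products differed. Atp2b1, a pump that sends calcium out across the plasma membrane, had means of 4.39 ± 0.59 and 3.22 ± 0.18 FPKM (SD, n = 3). Its log2 fold change was -0.35 (adjusted p = 0.12 in limma). Atp2b4, another pump of that membrane named after its values were seen, had means of 9.555 and 7.406 FPKM in controls and knockouts, with overlap. The log2 fold change of Atp2b4 was -0.32 (adjusted p = 0.21 in limma). The phospholipase genes Plcg1 and Plcg2, which make inositol trisphosphate, were also lower: Plcg1 had means of 12.5 and 9.88 FPKM, and Plcg2 had 1.45 to 2.37 FPKM in controls and 0.802 to 1.33 FPKM in knockouts. Mcub, a paralogue of Mcu that dampens the uniporter, had means of 2.82 and 1.68 FPKM, with overlap. Plcg2 is also a gene of blood cells, and all 6 macrophage markers were lower at an unadjusted p of 0.05; their part in the lower values was not tested.

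The pump regulators that act beside Sln were close to absent. Pln (phospholamban) had 5 reads summed over the knockouts and was listed at 0 in the controls, Mrln (myoregulin) had 6 reads over all libraries, and Strit1 was listed at 0 throughout. Of the store proteins, Calr and Casq1 divided like the pumps, while Casq2 stood at 0.234 to 0.578 FPKM on 9 to 21 reads a library. Calr, the calcium buffer of non-muscle cells, had means of 92.3 and 93.7 FPKM, whereas Casq1, the buffer of fast muscle, measured 1.38, 0.561 and 0.731 FPKM in control replicates 1 to 3, against 0.659, 1.97 and 6.91 FPKM in knockout replicates 1 to 3. Of 59 genes on the list above 0 in every library, 5 varied less as a ratio to Acta1 than as a level, namely Casq1, Trdn, Hrc, Jph2 and Cacna1s, named here after their values were seen. The share over tested genes was 0.269%, but Trdn, Jph2 and Cacna1s were not among those tested. Jph2 passed narrowly, with an SD of 0.77 for the level and 0.69 for the ratio. Trdn fell to 1 read in its lowest library, and Hrc and Cacna1s to 4. The products of these 5 genes sit at or near the junction where Ryr1 is opened in muscle. Jph1, another junctophilin, stood at 0.919 to 1.47 FPKM, and Stac3 at 0.279 to 0.951 FPKM. Their ranges were 1.61-fold and 3.41-fold, against 16.3-fold for Acta1.

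For each tested gene, the 3 genes whose log2 ratio to it varied least over the 6 libraries were taken from 10770. For Atp2a1 these were Tnnt3 (SD 0.15), Myot (0.18) and Pvalb (0.21), against an SD of 1.58 for its own level, and Acta1 came 9th by this measure. For Atp2a2 they were Map2k2, Ubqln4 and Rnf10 (0.026 to 0.037), and for Atp2a3 1810058I24Rik, Rexo1 and Cdip1 (0.014 to 0.022). For Itpr1 they were Lsm11, Bet1 and Fam162a (0.071 to 0.073), for Itpr2 Acot13, Etfa and mt-Cytb (0.044 to 0.062), and for Itpr3 Cep85, Procr and Nbl1 (0.080 to 0.094). For these 5 genes Acta1 ranked between 10728 and 10735 of the 10770. With an SD of 1.45 for its own level, Acta1 would rank low against any gene of steady level. The levels of the 5 genes themselves had SDs between 0.13 (Atp2a3) and 0.44 (Itpr3). The smallest SDs picked from 10770 genes over 6 libraries are low by selection, so they do not show that the genes are linked.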

How the data were processed

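Libraries were made with a stranded mRNA kit, per the labels' protocols. The tools cutadapt, HISAT2 and HTSeq and the build mm10 are listed in the submitters' processing notes; their versions, the annotation and the strand setting are not given in what was used here. The deposited values are FPKM per gene, made by the authors. The table has 21936 rows, and 36 repeats of a symbol, none of them a gene described here, were left out. Reads were recovered from FPKM and GENCODE M21 merged exon length (mm10): 98.02 to 98.14% of values up to 50 reads were whole within 0.05. No pair of libraries agreed within counting noise (chi-square per degree of freedom at least 9.28). Because the values are FPKM, limma 3.58.1 (R 4.3.3) was fitted with a mean-variance trend to log2(FPKM + 1) over genes whose mean reached 1 FPKM in controls or in knockouts, genotype as the only term, with Benjamini-Hochberg adjustment over all of them and a threshold of 0.05. The fit was tested on simulated data. Single values were compared by exact two-sided permutation (scipy 1.17.1).

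The genes and lists were chosen with earlier results of these data known. Named genes are the members, Foxp4, muscle and fat references, 5 genes per direction of the pathway list with the smallest p, set store and regulator genes, and the 3 genes of steadiest ratio to each member. Marker lists are given with the results they touch. Schwann cell and neuronal markers summed to 42.1 to 69.0 FPKM in controls and 39.4 to 56.1 FPKM in knockouts and cardiac markers to 0.668 to 1.07 and 0.160 to 1.61 FPKM. Alternatives were another pseudocount, no filter, a replicate block, each library left out, median-of-ratios scaling, voom on recovered reads, Acta1 as a covariate and other muscle references.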

Additional observations from a re-analysis of the deposited data

How the results depend on the processing

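Over all genes tested, 1 gene passed an adjusted p of 0.05 in limma. The count was 0 without a filter, 0 with the Acta1 covariate, 0 with voom on recovered reads and 0 under a replicate block, and between 0 and 5 when 1 library was left out (5 without control replicate 3). At an unadjusted p of 0.05, 2601 genes passed, and 1501 to 2745 with 1 library left out (lowest without knockout replicate 2). The numbers did not pair the libraries: deviations of same-numbered libraries correlated at 0.065, 0.027 and -0.25, and the block left 0 of the pumps and channels at an unadjusted p of 0.05 in place of 1. That count was 2 with the Acta1 covariate, which added Atp2a1, and 0 to 1 with 1 library left out (0 without knockout replicate 2). The gene counted was not always Atp2a2: it was Itpr3 without control replicate 2 and Atp2a1 without knockout replicate 1. On the pathway list 11 genes passed that level, and 6 to 15 with 1 library left out (6 without control replicate 1). The sign of the mean log2 ratio of knockout over control turned to positive without knockout replicate 3 for the ratio to Acta1 of Atp2a2 (0.26), Itpr1 (0.25) and Itpr2 (0.22), whose lowest values with 1 library left out were -1.71, -1.61 and -1.70. Under the block the unadjusted p of Atp2a2 was 0.064. With other references, chosen after the data were seen, it turned for Atp2a1 with Myh1 (-0.44) and Pvalb (-0.034), and for Ryr1 with Eno3 (0.14). The cause was not tested. Depth limits Ryr2 and Ryr3, at 1 to 30 reads a library, and Sln, at 0 to 25.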
